A study of Mus musculus with 2 samples.

Results

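The miR-322 to miR-450b cluster is a group of 7 microRNA hairpins on the X chromosome of the mouse: Mir322, Mir503, Mir351, Mir542, Mir450-2, Mir450-1 and Mir450b. The members were taken by gene identifier from the tables of read counts per microRNA gene, which hold 1973 genes. All 7 had counts in both animals, and 5 reached a mean of 10 counts per 1000000 reads assigned to genes (CPM), as did 310 genes of the tables. Small RNA with inserts under 30 nucleotides was sequenced from 2 whole forebrains of B6NCrl mice at postnatal day 0, 1 forebrain from each of the animals named pup 3 and pup 1 in the labels. The pups form 1 untreated group, sex was not recorded, and both pups carry the same donor record. The design therefore describes newborn forebrain tissue and how far single animals differ, with no comparison of conditions.

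A microRNA is cut from a hairpin in a longer primary transcript, and bases 2 to 8 of the mature strand, the seed, select most of its target messenger RNAs. Hairpins that lie close together on the same strand are often cut from a shared transcript, called a polycistron, and the amount of each mature product then also depends on processing and decay. miR-322, the mouse counterpart of human miR-424, and miR-503 belong to the extended miR-15/16 family, which represses cyclins and other drivers of the G1 to S step of the cell cycle. In mouse myoblasts both are known to increase when the cells stop dividing and differentiate. miR-351 carries the seed of the miR-125 family, which is known in neural differentiation, and human miR-542-3p is known to repress the survival gene BIRC5.

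The sequences show which members can stand in for other families and which members are hard to count. The mature sequences below are from RefSeq (GRCm38.p6), written 5′ to 3′ with the seed in capitals. The first set compares the 5p strands of Mir322 and Mir503 with those of the miR-15/16 family.
miR-322-5p: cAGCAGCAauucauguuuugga
miR-15a-5p: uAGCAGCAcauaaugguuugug
miR-16-5p: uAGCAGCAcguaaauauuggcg
miR-503-5p: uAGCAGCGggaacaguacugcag
miR-322-5p has the 7 seed bases of miR-15a and miR-16. miR-503-5p shares bases 2 to 7 with them and differs from miR-322-5p at the last seed base (A8G, counted from 1 at the 5′ end). Outside the seed miR-322-5p and miR-15a-5p differ at 7 of 22 positions, and no seed position is among them.

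The next set compares miR-351-5p with its seed relatives and adds miR-542-3p, whose seed no other mature sequence in the RefSeq table carries.
miR-351-5p: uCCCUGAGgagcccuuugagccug
miR-125a-5p: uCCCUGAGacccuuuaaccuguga
miR-125b-5p: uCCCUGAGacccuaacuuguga
miR-542-3p: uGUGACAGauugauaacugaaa
miR-351-5p and miR-125a-5p have the same seed and are identical at 10 of 24 positions.

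The last set holds the products of the 3 Mir450 hairpins, which share parts of their sequence.
miR-450a-5p: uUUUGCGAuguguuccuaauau
miR-450b-5p: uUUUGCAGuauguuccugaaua
miR-450a-1-3p: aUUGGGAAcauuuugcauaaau
miR-450b-3p: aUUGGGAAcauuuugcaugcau
miR-450a-2-3p: aUUGGGGAugcuuugcauucau
miR-450a-5p comes from both Mir450-1 and Mir450-2 with the same 22 bases. miR-450b-5p has another seed, through G7A and A8G. The 3p strands of Mir450-1 and Mir450b share their seed and differ only by A19G and A20C. The hairpins of Mir450-1 and Mir450-2 are shown with their longest common stretch, 25 bases, in capitals.
Mir450-1: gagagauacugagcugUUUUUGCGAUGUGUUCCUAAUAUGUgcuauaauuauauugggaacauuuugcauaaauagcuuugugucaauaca
Mir450-2: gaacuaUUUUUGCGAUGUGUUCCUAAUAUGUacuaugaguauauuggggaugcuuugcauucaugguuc
A read of miR-450a-5p that lies inside that stretch maps to both hairpins. Such reads were tallied apart and assigned to no gene, so Mir450-1 and Mir450-2 can be undercounted, and their levels are uncertain. Mir450b and Mir450-1 share a stretch of 19 bases. By a search for common stretches of 20 bases or more among 1894 annotated hairpins, Mir450-1 and Mir450-2 matched each other, and none of the other 5 members matched a hairpin elsewhere.

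All 7 hairpins lie on the minus strand within 6353 bases (chrX:53047997-53054349, GRCm38). From 5′ to 3′ on that strand, Mir322 (ENSMUSG00000065418.1) lies at chrX:53054255-53054349 and Mir503 (ENSMUSG00000076122.1) follows after 200 bases at chrX:53053984-53054054. Mir351 (ENSMUSG00000065503.1) lies 630 bases further on, at chrX:53053255-53053353. Mir542 (ENSMUSG00000076140.1) comes after the widest gap, 3767 bases, at chrX:53049403-53049487. Mir450-2 (ENSMUSG00000076399.1) lies at chrX:53048299-53048367, Mir450-1 (ENSMUSG00000065486.1) at chrX:53048154-53048244 and Mir450b (ENSMUSG00000076050.1) at chrX:53047997-53048078. GENCODE M21 places none of them inside another gene. The noncoding gene C430049B03Rik ends 696 bases before Mir322 on the same strand, and the noncoding gene Gm28730 fills part of the gap between Mir351 and Mir542. The hairpins fall into groups by base composition: GC content was 50.5% to 54.9% in the 4 upstream hairpins and 30.5% to 36.2% in the 3 Mir450 hairpins.

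Both libraries were deep and alike in their tallies. In pup 3, 7678662 reads were assigned to genes, and in pup 1 9037087, which was 40.8% and 40.2% of all reads, while 43.5% and 43.0% mapped to several places. The 10 forebrain marker hairpins summed to 46120 CPM in pup 3 and 33535 CPM in pup 1. Among them Mir137, a brain-enriched microRNA, had 33595 CPM in pup 3 and 24345 CPM in pup 1. The other 9 each have 20 or more bases in common with a hairpin elsewhere, so their counts are uncertain. On the mean of the pups the highest of them was Mir128-1, at 6733 CPM in pup 3 and 5104 CPM in pup 1. The lowest was Mir9-2, at 1.56 and 1.33 CPM. In pup 3 Mir124a-2 was lower still, at 0.781 CPM, and it stood at 2.21 CPM in pup 1. Markers of other cell types were present at very different summed levels. Endothelial Mir126a stood at 36865 CPM in pup 3 and 40491 CPM in pup 1, 6 mural and mesenchymal hairpins at 5343 and 5972 CPM, and 2 choroid plexus hairpins at 3831 and 5261 CPM. Low sums were found for 3 leukocyte and microglial hairpins (418 CPM in pup 3 and 378 in pup 1), 2 erythroid hairpins (370.0 and 228 CPM), 5 hindbrain and spinal cord hairpins (147 and 192 CPM) and liver Mir122 (64.5 ± 14.9 CPM, SD, n = 2). The 9 muscle hairpins summed to 91.2 CPM in pup 3 and 179.6 CPM in pup 1, and Mir1a-1, Mir133a-1 and Mir133a-2 were at 0 in both. These 3 share a stretch with other hairpins of the list, so their reads can be missing from the counts. Which of these cells the cluster's reads come from was not tested, and in whole forebrain fewer cells of a type and less RNA per cell cannot be told apart.

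The cluster took 0.793% of the assigned reads in pup 3 (95% Wilson interval 0.787 to 0.799) and 0.884% in pup 1 (0.878 to 0.891). The summed level was 8386 ± 648 CPM (SD, n = 2). This was 22.4% of all reads assigned to the 120 X-linked genes in pup 3 and 23.9% in pup 1. No read of the cluster lay on the opposite strand in either pup, out of 60874 reads in pup 3 and 79922 in pup 1, which allows shares of up to 0.00493% and 0.00375% (3 counts). Intervals and limits cover counting error only, since the labels name no molecular identifiers.

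Mir322, the miR-15/16 relative at the 5′ end, dominated the cluster. It had 54679 reads (7121 CPM) in pup 3 and 73053 reads (8084 CPM) in pup 1, a mean of 7602 ± 681 CPM (SD, n = 2). This was 89.8% of the cluster's reads in pup 3 (95% Wilson interval 89.6 to 90.1) and 91.4% in pup 1 (91.2 to 91.6). Mir322 ranked 27 of all genes in pup 3 and 23 in pup 1. On the mean of the pups it was the most abundant X-linked hairpin by assigned reads. It was ahead of the let-7 family member Mir98 at 6195 ± 400.1 CPM, and the ranges of these 2 hairpins did not overlap. Reads that map to several places are left out, so hairpins with copies elsewhere can rank too low.

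Mir503, which also belongs to the extended miR-15/16 family and lies closest to Mir322, had far fewer reads. It had 693 reads (90.3 CPM) in pup 3 and 847 reads (93.7 CPM) in pup 1, a mean of 92.0 ± 2.46 CPM (SD, n = 2). Mir322 had 78.9 times as many reads as Mir503 in pup 3 and 86.2 times as many in pup 1. Whether the libraries captured different mature sequences equally was not tested, so levels of different hairpins are compared as reads only. Mir503 took 1.14% of the cluster's reads in pup 3 (95% Wilson interval 1.06 to 1.23) and 1.06% in pup 1 (0.991 to 1.13).

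Mir351, with the miR-125 seed, was second in level. It had 3907 reads (509 CPM) in pup 3 and 3604 reads (399 CPM) in pup 1, a mean of 454 ± 77.8 CPM (SD, n = 2). Its share of the cluster was 6.42% in pup 3 (95% Wilson interval 6.23 to 6.62) and 4.51% in pup 1 (4.37 to 4.66), so its counting intervals do not overlap between the pups. Mir542 came next, with 1308 reads (170.3 CPM) in pup 3 and 1970 reads (218 CPM) in pup 1, a mean of 194 ± 33.7 CPM. It took 2.15% of the cluster's reads in pup 3 (2.04 to 2.27) and 2.46% in pup 1 (2.36 to 2.57).

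The Mir450 hairpins at the 3′ end had the lowest counts. Mir450b had 222 reads (28.9 CPM) in pup 3 and 389 reads (43.0 CPM) in pup 1, a mean of 36.0 ± 9.99 CPM (SD, n = 2). Mir450-1 had 35 reads (4.56 CPM) in pup 3 and 29 reads (3.21 CPM) in pup 1. Mir450-2 had 30 reads in each pup (3.91 CPM in pup 3 and 3.32 CPM in pup 1). The last 2 are the hairpins with the common stretch shown above, and their counts leave out reads that map to both.

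**Figure D1:**
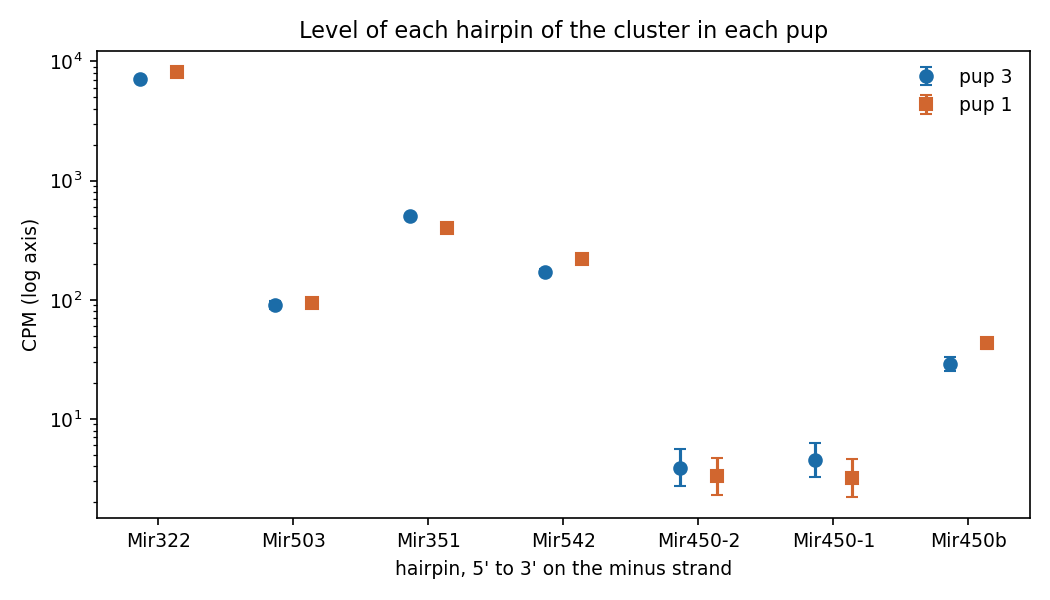
CPM of each cluster member on a log axis, in 5′ to 3′ order on the minus strand, with circles for pup 3, squares for pup 1 and bars for 95% Wilson intervals of counting error (smaller than the symbol for most members). Mir322 stands at 7121 CPM in pup 3 and 8084 CPM in pup 1, Mir503 beside it at 90.3 and 93.7 CPM, and Mir450-2 and Mir450-1 are below 5 CPM in both pups.

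The order of levels was Mir322, Mir351, Mir542, Mir503, Mir450b, then Mir450-1 and Mir450-2. The ranges of the pups did not overlap between any of the first 5 neighbouring pairs in this order, while Mir450-1 (3.88 ± 0.954 CPM) and Mir450-2 (3.61 ± 0.415 CPM) overlapped (SD, n = 2). A small RNA read spans about a whole mature strand, so CPM was not divided by hairpin length. On the scale of CPM per 100 bases of hairpin, which was chosen after the data were seen, the first 5 kept their order and Mir450-2 (5.24) came before Mir450-1 (4.27). Mir322 at the 5′ end was highest and the Mir450 hairpins at the 3′ end were lowest. The fall along the strand was not steady: Mir503 was below both Mir351 and Mir542, which lie downstream of it.

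The spread of levels within the cluster was compared with other genomic clusters, joined from hairpins of the same strand with gaps up to 10 kb. With Mir322's cluster, 7 clusters had at least 4 hairpins at a mean of 10 CPM or more. The SD of log2 CPM over hairpins was 2.95 in the cluster (3.02 in pup 3 and 2.90 in pup 1, over 5 hairpins). It was 3.24 in the Mir17 cluster, a polycistron known to promote proliferation, and 1.20 in its X-linked paralog led by Mir363. The leading hairpin took a larger share of the reads in the Mir322 cluster than in the other 6. In those the share was between 32.7% and 63.1% in either pup, as a description with no test. Clusters with fewer than 4 hairpins at 10 CPM or more were not compared. A share this large is thus not shown to be particular to the Mir322 cluster. Reads that map to several places are left out, which can change spreads and shares unequally. Among hairpins at 10 CPM or more, 0 of 5 in the Mir322 cluster shared a stretch with another hairpin, and 7 of 7 in another cluster did.

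**Figure D2:**
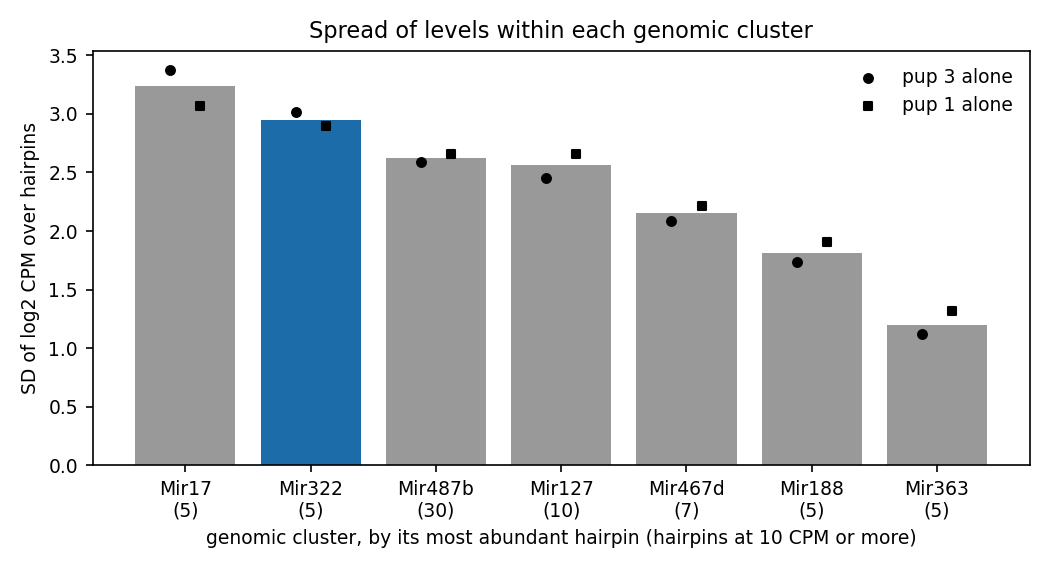
SD of log2 CPM over the hairpins at 10 CPM or more of each genomic cluster (bar: from mean CPM; circle: pup 3 alone; square: pup 1 alone), with the number of hairpins in brackets and the Mir322 cluster in blue. The Mir322 cluster, at 2.95, is second to the Mir17 cluster, at 3.24.

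The seed families set 2 of the members beside their relatives. The seed of miR-322-5p is carried by 11 hairpins in RefSeq. Of these, 10 had a row, and Mir497 was not analysed here. Counts at Mir497b, of the same locus, lay almost all on the strand opposite to it (8396 of 8398 in pup 3 and all 11777 in pup 1) and were left out of the sum. The 10 hairpins summed to 28706 CPM in pup 3 and 21085 CPM in pup 1. Mir322 supplied 24.8% of this in pup 3 (95% Wilson interval 24.63 to 24.99) and 38.3% in pup 1 (38.1 to 38.6). Reads that map to both Mir16-1 and Mir16-2 are missing from the sum, as are those of Mir497, so these shares can be too high.

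Mir322 and Mir15a stood in opposite order in the pups. In pup 3, Mir15a stood at 12220 CPM and Mir322 at 7121 CPM, and in pup 1, Mir15a stood at 6593 CPM and Mir322 at 8084 CPM. The miR-15/16 hairpins of chromosome 14, Mir15a and Mir16-1, were higher in pup 3, with 5382 CPM in pup 3 and 2458 CPM in pup 1 for Mir16-1. Mir16-2 stood at 1218 CPM in pup 3 and 467 CPM in pup 1, and Mir195a at 2048 and 2698 CPM. Mir15b stood at 716 and 786 CPM. Mir16-1 and Mir16-2 give the same mature sequence, so their counts are uncertain and can be too low. Outside the cluster, 6 miR-15/16 family hairpins stood at 10 CPM or more, Mir497b with its opposite-strand counts among them. After scaling between the libraries, 3 of these (Mir15a, Mir16-1 and Mir16-2) were past 1.5-fold higher in pup 3 and none past 1.5-fold lower. Of the 310 genes at that level, 17.4% were past it in the higher direction. Mir322 and Mir503, not counted among the 6, had log2 ratios of pup 3 over pup 1 of 0.02 and 0.15.

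Mir351 was the lowest of the 4 detected hairpins with its seed. These summed to 16803 CPM in pup 3 and 15360 CPM in pup 1, of which Mir351 supplied 3.03% in pup 3 (95% Wilson interval 2.94 to 3.12) and 2.60% in pup 1 (2.51 to 2.68). Mir125a stood at 9433 CPM in pup 3 and 8644 CPM in pup 1, Mir125b-1 at 4142 and 3524 CPM, and Mir125b-2 at 2719 and 2792 CPM. Mir125b-1 and Mir125b-2 give the same mature sequence and can be undercounted, so the shares of Mir351 in the full sum can be too high. Without these hairpins Mir351 supplied 5.12% of the rest in pup 3 and 4.41% in pup 1, which does not correct for the missing reads. Counts hold both mature strands of a hairpin, 5p and 3p. A sum over a seed family thus also holds reads of the mature strand without that seed, which were not measured apart.

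**Figure D3:**
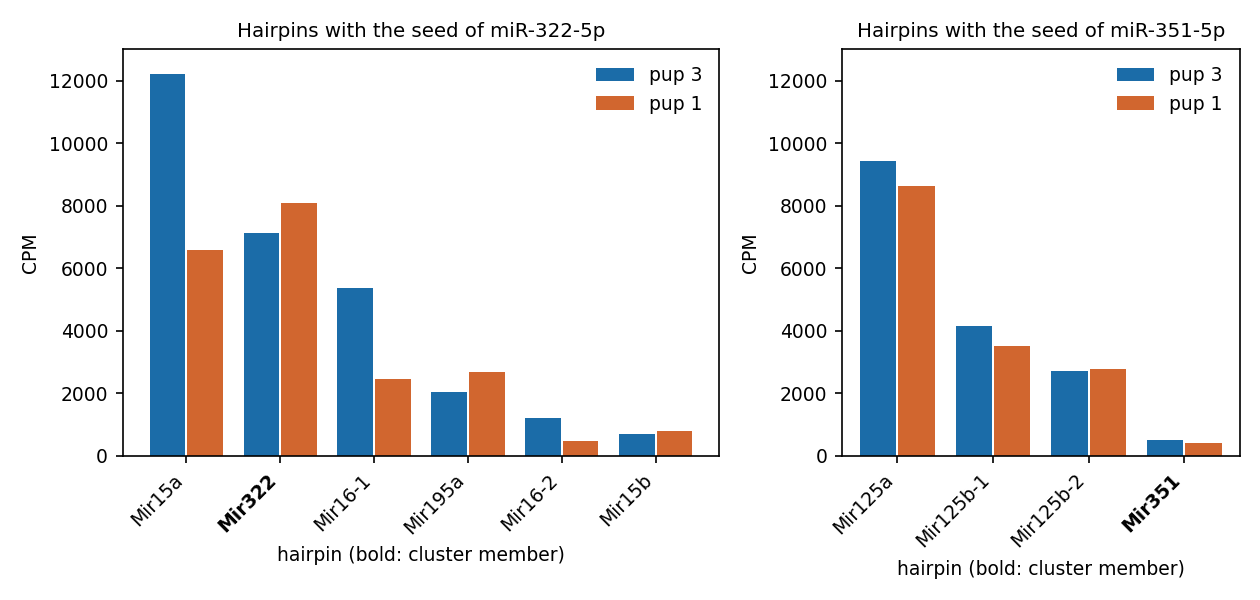
CPM in pup 3 (blue) and pup 1 (orange) of the hairpins at a mean of 1 CPM or more whose mature strand carries the seed of miR-322-5p (left) or of miR-351-5p (right), with members of the cluster in bold. Mir322 is below Mir15a in pup 3 and above it in pup 1, and Mir351 is the lowest of its 4 hairpins in both pups.

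The summed reads of the cluster, most of them from Mir322, differed little between the pups. With counts scaled by TMM factors, which assume that most genes do not differ, the summed reads of pup 3 over pup 1 had a ratio of 0.04 on the log2 scale (0.03 to 0.06, 95% exact binomial interval). Scaled by total counts it was -0.16. Without Mir322 the sum had a log2 ratio of 0.29 (0.24 to 0.34) under TMM and 0.09 under total counts. Over all 310 genes at 10 CPM or more the median log2 ratio was -0.23 under total counts and -0.03 under TMM. The cluster's ratio lay 0.07 above that median. A change of scaling shifts all ratios alike, so this difference cannot depend on it and does not settle the sign. Each pup is 1 library, so these ratios have no replicate check and no p-value is given.

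Of the 5 members at 10 CPM or more, 0 were past 1.5-fold in either direction, while 102 of 310 genes (32.9%) were past it, and 111 of 310 (35.8%) were past it under total counts. Of all 7 members, Mir450-1 alone was past 1.5-fold, from 35 and 29 reads, with an interval that includes no difference (log2 ratio 0.70, -0.05 to 1.47), and under total counts no member was. The median log2 ratio of the 5 members was 0.02, beside -0.03 over all 310 genes. The median absolute log2 ratio was 0.16 in the 5 members and 0.36 in all 310 genes under TMM, and 0.35 and 0.42 under total counts.

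The members moved in different directions. Mir351 was higher in pup 3, at 0.55 on the log2 scale (0.49 to 0.62, 95% exact binomial interval), and 0.35 under total counts. Mir450b was lower in pup 3, with -0.37 (-0.62 to -0.13), and -0.57 under total counts. Mir542 had -0.16 (-0.26 to -0.05) and Mir503 had 0.15 (-0.001 to 0.29), which became -0.36 and -0.05 under total counts. Mir322 had 0.02 (0.001 to 0.03), which became -0.18, so the sign of Mir322 and Mir503 depended on the scaling. Of the 310 genes, 65.2% had a smaller absolute ratio than Mir351 under TMM and 42.6% under total counts. For Mir322 the shares were 1.94% under TMM and 22.6% under total counts.

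**Figure D4:**
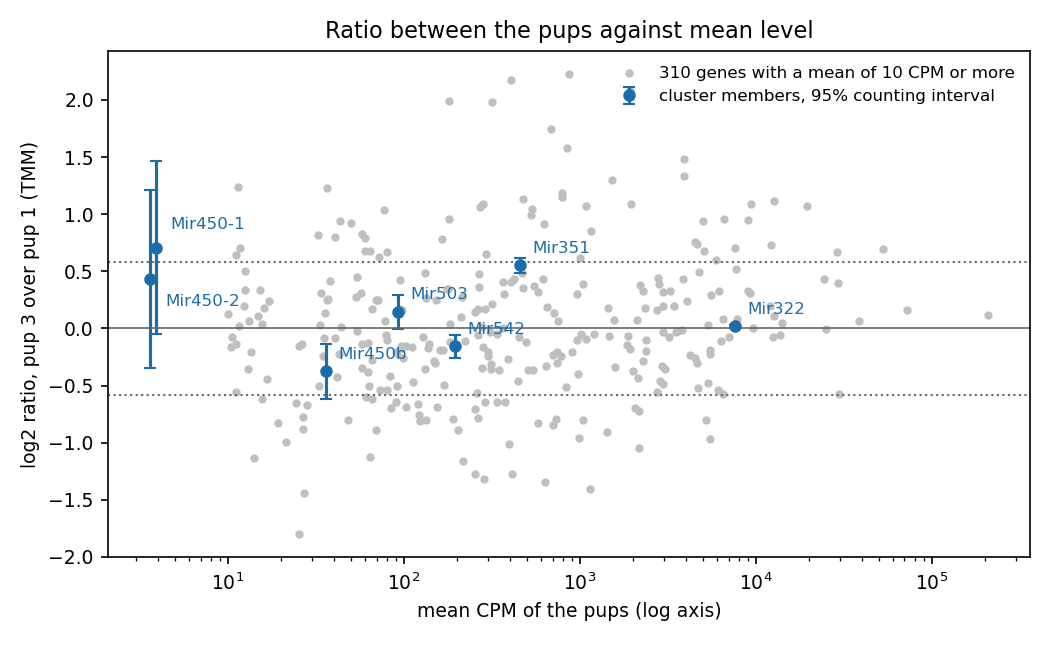
Log2 ratio of pup 3 over pup 1 (TMM scaling) against mean CPM on a log axis for the 310 genes at 10 CPM or more (grey) and the 7 cluster members (blue, with 95% exact binomial intervals of counting error), with dotted lines at 1.5-fold. The members from Mir450b upward in level lie between the dotted lines, from -0.37 for Mir450b to 0.55 for Mir351, and Mir450-1 has a wide interval at 35 and 29 reads.

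Ratios within the cluster need no scaling between libraries. For each 1000 reads of Mir322 there were 71.5 reads of Mir351 in pup 3 and 49.3 in pup 1, a fold of 1.45 (95% counting interval 1.38 to 1.52). For Mir450b there were 4.06 reads in pup 3 and 5.32 in pup 1, a fold of 0.762 (0.646 to 0.899). For Mir542 there were 23.9 reads in pup 3 and 26.97 in pup 1, a fold of 0.887 (0.826 to 0.952). Mir503 had 12.7 reads in pup 3 and 11.6 in pup 1 and an interval that includes no change (fold 1.09, 0.988 to 1.21). The intervals of Mir450-1 and Mir450-2 also included no change. Mir351 thus took a larger part of the cluster in pup 3 than in pup 1, and Mir542 and Mir450b a smaller part. Their folds had counting intervals that left out 1 in these 2 libraries. Such shifts were not particular to this cluster. The SD of log2 ratios over its 5 hairpins at 10 CPM or more was 0.35, beside 0.22 to 0.51 in the other genomic clusters.

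**Figure D5:**
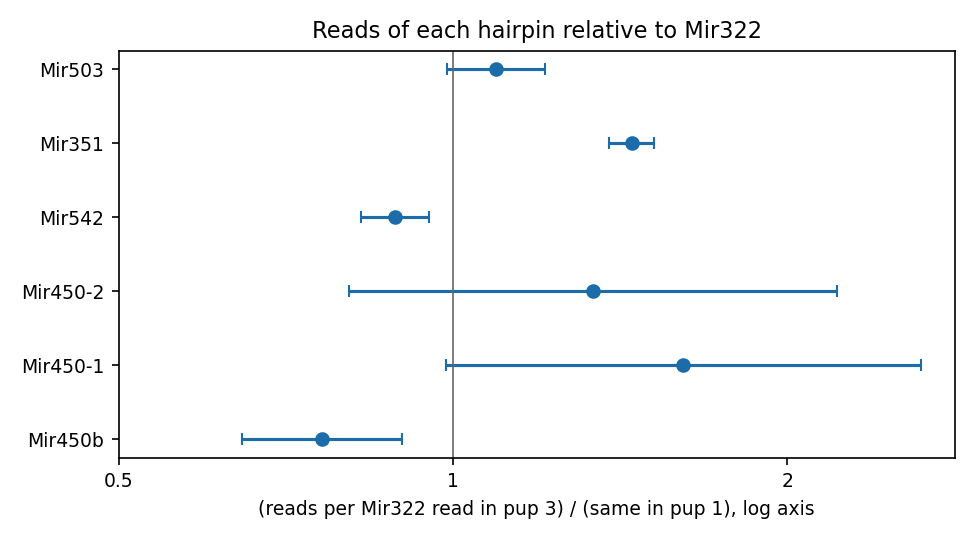
Fold of pup 3 over pup 1 in reads per Mir322 read for the other 6 members on a log axis, with 95% counting intervals (delta method on log counts). The interval of Mir351 lies above 1, those of Mir542 and Mir450b lie below 1, and those of Mir503, Mir450-1 and Mir450-2 cross 1.

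Hairpins with levels most like those of each member were found by the larger of the absolute differences in log2 CPM over the 2 pups. For Mir322 these were Mir181a-1 (0.08), Mir411 (0.16), Mir23b (0.25), Mir708 (0.27) and Mir106b (0.33), of which Mir106b alone shares no stretch of 20 bases with another hairpin. Mir351 was closest to Mir25 (0.08), Mir221 (0.15) and Mir384 (0.17), Mir542 to Mir495 (0.11), and Mir503 to Mir214 (0.02), Mir10b (0.06) and Mir494 (0.09). Mir450b was closest to Mir3072 (0.10), Mir450-1 to Mir344g (0.04) and Mir450-2 to Mir675 (0.05). With 2 samples this is likeness of level only.

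Other cell-cycle and growth hairpins stood in the same libraries as follows. The 15 hairpins of the Mir17, Mir106b and Mir106a polycistrons summed to 41208 CPM in pup 3 and 28534 CPM in pup 1, and 6 of 13 at 10 CPM or more were past 1.5-fold higher in pup 3 under TMM and none lower, beside 17.4% of the 310 genes past it in the higher direction. The hypoxia-induced Mir210 stood at 225 CPM in pup 3 and 328 CPM in pup 1. Mir483, in an intron of the growth factor gene Igf2, stood at 122 and 155 CPM, and Mir675, made from the imprinted RNA H19, at 3.91 and 3.43 CPM. Mir335, in the imprinted gene Mest, stood at 31194 CPM in pup 3 and 27258 CPM in pup 1. Of the 3 of these at 10 CPM or more, which leave out Mir675, none was past 1.5-fold, beside 32.9% of the 310 genes in either direction.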

How the data were processed

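The authors deposited, for each of 2 pups, a table of whole-number counts of reads per microRNA gene, made on assembly mm10 with annotation M4, per the file headers and notes. For the aligner, the counter and the settings, the sources used here give nothing. Each table has 3 count columns. In every gene the first was the sum of the others, which were read as the strand of the gene and its opposite, and the first was used. The 4 tallies that name no gene stayed out of library sizes, where reads mapping to several places held 43.5% (pup 3) and 43.0% (pup 1) and unmapped reads 14.4% and 14.9%. GENCODE M21 (GRCm38, which is mm10) gave gene names by identifier (1894 of 1973 matched). Sequences came from RefSeq (GRCm38.p6), matched by symbol for all 7 members in the mature table and 6 in the hairpin table.

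CPM used reads assigned to genes. Ratios used counts plus 0.5 scaled by TMM factors of edgeR 4.0.16 (0.933 for pup 3, 1.07 for pup 1). With 1 group and single libraries no edgeR test was possible. DESeq2 1.42.0 size factors were an alternative. The named genes were the members, hairpins with their seeds, fixed lists, and the hairpins nearest in level (5 for Mir322, 3 for each other member, of which the closest are given). The ratio was run on simulated counts with no variation between animals, and centred on the genes left unchanged. This does not check the scaling or the spread between animals. Members, lists and tests were chosen with earlier results of these data known. R 4.3.3 and Python 3.11.15 were used.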

Additional observations from a re-analysis of the deposited data

How the results depend on the processing

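With total counts in place of TMM, the log2 ratio of pup 3 over pup 1 turned to -0.16 for the cluster sum and -0.18 for Mir322. With reads on the strand of the gene only it was -0.00149 for Mir322 and 0.0237 for the cluster sum, because the library totals and TMM factors change while the members' reads do not. Without Mir322 the cluster sum had a log2 ratio of 0.29. With all library reads as the denominator, the cluster stood at 3397 CPM, and the level of every member moved with it. Without hairpins that share a stretch, the hairpins with the miR-351-5p seed summed to 9493 CPM. The count of genes past 1.5-fold was 174 of 475 at a mean of 1 CPM or more and 384 of 775 with any count, where low counts enter. The order of the first 5 members held in each pup alone. With neighbours joined up to 3 kb the cluster was split and gave no value. No paired analysis was possible because there is 1 group. Mir450-1 and Mir450-2 had 29 to 35 reads each, which sets their wide counting intervals, and how many reads their common stretch removed was not measured.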
